A study of Rattus norvegicus with 18 samples.

Results

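The comparison described here is between the livers of F-RBC rats and the livers of naive rats, across all probe sets of the array. Its members are the 3 arrays that the sample titles name as fresh red blood cells and the 3 that they name as naive, 6 of the 18 arrays of the series, with 1 array per rat. F-RBC rats were adult male Sprague-Dawley rats whose liver was reduced by 50% partial hepatectomy (PHx), that were bled of 3 ml through the femoral artery and given fresh red blood cells after the resection, and whose livers were taken on day 1. Naive rats had neither PHx nor transfusion. PHx rats had the resection alone, bleeding rats had resection and bleeding without resuscitation, S-RBC rats had the same resection and bleeding and were given red blood cells stored for 7 days, and HAES rats had them and were given 10% HAES, a starch plasma expander. Operation, resection, blood loss and transfusion all separate F-RBC rats from naive rats, so their parts in a difference between these groups cannot be told apart.

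After part of the liver is removed, the remaining hepatocytes leave their resting state, copy their DNA and divide until the mass is restored. In the rat the first wave of DNA synthesis follows within about a day of the resection. The same hepatocytes make most plasma proteins, among them the acute phase proteins that rise after injury or surgery under interleukin 6, and they make and burn fat, dispose of nitrogen and clear drugs. Each of these tasks has its own set of genes, and the results are ordered by them.

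Values are log2(intensity + 16), where the intensity is the brightness of a probe set and adding 16 shrinks differences between dim values. A difference is the mean of the 3 F-RBC rats minus the mean of the 3 naive rats, with its standard error (SE) from limma fitted over all 18 arrays. A gene is called higher or lower where the Benjamini-Hochberg adjusted p over all probe sets was under 0.05. The p-values measure the spread between rats. Of 36685 probe sets, 2264 (6.17%) were past this threshold, 1796 higher (4.9%) and 468 lower (1.28%) in F-RBC rats. The F-RBC arrays were brighter in the middle of their range than the naive arrays, with a median intensity of 20.9, 22.5 and 22.7, against 16.1, 18.6 and 17.9 in naive rats. The median log2 difference of all probe sets was 0.14 as deposited and -0.04 after each array was centred on its median, and quantile normalization removed it. The split of calls turned with the scaling, to 864 higher and 852 lower after quantile normalization and to 475 higher and 953 lower after centring. Calls that held under all 3 scalings numbered 470 higher (1.28%) and 465 lower (1.27%), where both rescalings shift the differences downward, which by itself favours keeping lower calls and losing higher ones.

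Of 18166 genes with 1 symbol, each taken by its brightest probe set, 1125 (6.19%) were past the threshold, 1015 (5.59%) higher and 110 (0.606%) lower, and under all 3 scalings 262 (1.44%) were higher and 110 (0.606%) lower. The median log2 difference of all these genes was 0.17. In 27.6% of all probe sets the 3 F-RBC arrays lay above the 3 naive arrays, and in 5.1% they lay below. In bulk liver, fewer cells of a type and less RNA per cell cannot be told apart. Leaving out 1 rat lowered the number of calls in each case, to 554 without naive rat 1, 621 without F-RBC rat 2, 1166 without F-RBC rat 3, 1200 without naive rat 2, 1373 without F-RBC rat 1 and 1431 without naive rat 3.

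Among the largest differences were secreted defence proteins, drug-metabolizing enzymes and cell cycle genes on the higher side. The lower side held some enzymes of fat synthesis beside more genes of other roles. Lcn2, which encodes lipocalin 2 that withholds iron from bacteria, was at 10.35, 10.24 and 11 in F-RBC rats, against 4.76, 4.83 and 5.63 in naive rats. Cyp2b1, a drug-metabolizing cytochrome P450, was at 10.80, 9.58 and 9.28 in F-RBC rats, against 4.0, 4.84 and 5.0 in naive rats. Neither gene overlapped between the groups, and in naive rats both lay near the floor of the scale. Ces2c, a carboxylesterase, was at 7.46, 7.38 and 7.09 in F-RBC rats, against 4.41, 4.85 and 4.99 in naive rats (difference 2.56, SE 0.18, adjusted p = 1.30e-06). Acmsd, which steers tryptophan breakdown away from NAD, was at 9.19, 8.0 and 8.10 in F-RBC rats, against 5.87, 6.15 and 6.45 in naive rats (2.27, SE 0.32, adjusted p = 0.00111). Wfdc21, a secreted protein with a WAP domain, was higher by 2.00 (SE 0.20, adjusted p = 5.6e-05), and Sntb1, a syntrophin of the membrane skeleton, by 2.13 (SE 0.30, adjusted p = 9.93e-04). All 6 genes were past the threshold under each scaling and without any 1 rat.

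On the lower side, Scd, the desaturase that makes monounsaturated fatty acids, was at 5.36, 7.53 and 8.49 in F-RBC rats, against 10.79, 10.67 and 11.15 in naive rats (difference -3.74, SE 0.62, adjusted p = 0.00338). The F-RBC rats differed widely among themselves in this gene, with rat 1 far below the other two, and all lay below the naive rats. Stac3, known from excitation and contraction coupling in muscle, was at 4.95, 4.69 and 5.04 in F-RBC rats, against 7.13, 8.26 and 8.66 in naive rats (-3.12, SE 0.38, adjusted p = 2.70e-04). Sult1c2al1, annotated as a sulfotransferase, was lower (difference -2.70, SE 0.36), as was Cfap95, annotated as a protein of cilia and flagella (-2.22, SE 0.29). Csad, which makes the taurine precursor hypotaurine, was at 7.29, 7.64 and 8.15 in F-RBC rats, against 8.71, 9.55 and 9.53 in naive rats (-1.57, SE 0.28, adjusted p = 0.00562). These 5 genes stayed past the threshold without any 1 rat. Nrep lost its call without F-RBC rat 2 and Akr7a3, an aldehyde reductase, without naive rat 2. Leap2, an antimicrobial peptide of the liver that also blocks the ghrelin receptor, was at 6.87, 5.72 and 6.37 in F-RBC rats, against 8.17, 7.89 and 8.04 in naive rats, and kept its call in 1 of the 6 fits that each left out 1 rat (adjusted p 0.0327 to 0.13).

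**Figure D1:**
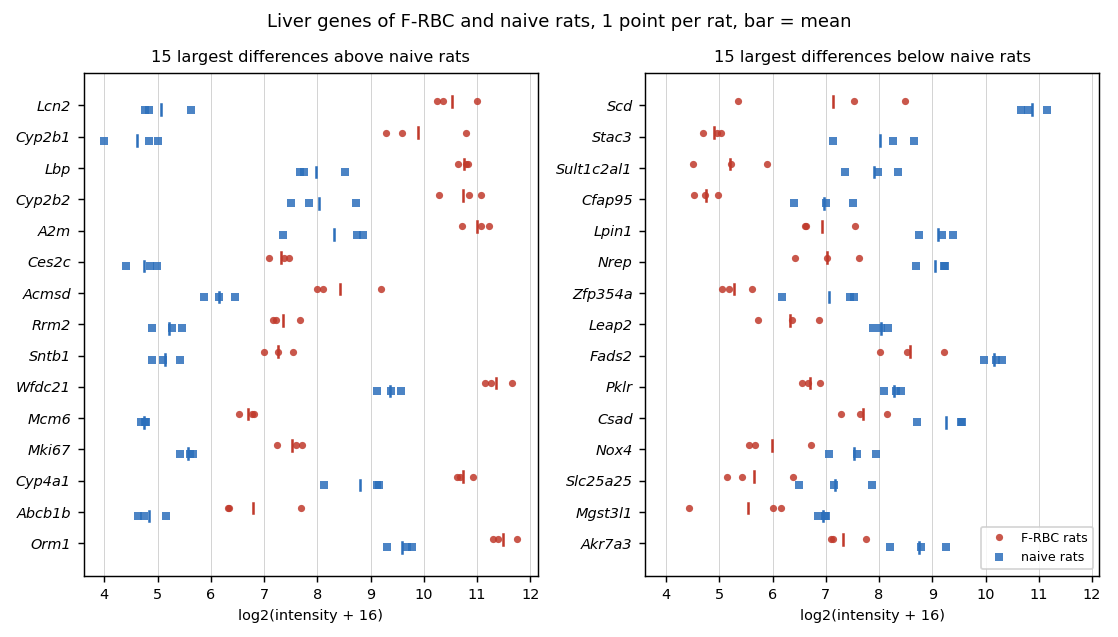
The 15 largest differences in each direction by the rule for named genes, with log2(intensity + 16) on the x axis and 1 gene per row. Circles are the 3 F-RBC rats, squares the 3 naive rats and bars their means, and in every row shown the points of the 2 groups do not overlap, with Scd spread from 5.36 to 8.49 among F-RBC rats.

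Genes that copy DNA were higher in F-RBC rats. Of 43 measured genes of DNA replication and nucleotide supply 19 were higher and 0 lower, with a median difference of 0.48, and 12 were higher under all 3 scalings. All 12 of these also passed without any 1 rat. Rrm2, the regulated subunit of ribonucleotide reductase that supplies deoxynucleotides, was at 7.68, 7.16 and 7.22 in F-RBC rats, against 4.9, 5.46 and 5.27 in naive rats (difference 2.15, SE 0.27, adjusted p = 4.11e-04). Mcm6, a subunit of the helicase that opens DNA at origins, was at 6.77, 6.82 and 6.53 in F-RBC rats, against 4.68, 4.79 and 4.76 in naive rats (1.96, SE 0.24, adjusted p = 2.70e-04). Mcm5 of the same helicase was at 6.26, 6.65 and 6.22 in F-RBC rats, against 4.41, 4.73 and 5.06 in naive rats (1.64, SE 0.21, adjusted p = 4.01e-04). All 6 helicase subunits were higher, with smaller differences for Mcm4 (1.21), Mcm2 (0.90), Mcm3 (0.86) and Mcm7 (0.79). So were Lig1 (0.97), the ligase that joins newly made fragments, Fen1 (0.84), which trims them, Gins1 (0.78), a partner of the helicase, Rpa2 (0.84), which binds single strands, and Uhrf1 (0.76), which carries methylation to the new strand. The polymerase subunit Pole (0.71) and the licensing factor Cdc6 (0.50) were past the threshold as deposited and not under every scaling.

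Genes of this list often have sites for E2F factors close to their start, and the promoters of the helicase genes Mcm5 and Mcm6 are shown for that reason. The E2F letters searched were TTTCCCGC and TTTGGCGC on both strands, in the 250 bases before and 50 after the start that RefSeq gives on GRCr8. They occurred in 14 of 37 list members with a promoter (37.8%), in 8 of the 16 higher ones, and in 1.49% of all 27457 promoters of the same length. Matches are in capitals, read 5′ to 3′ in the direction of the gene, and a match is a description and not a bound site.
Mcm5, chr19:13488563-13488862, plus strand: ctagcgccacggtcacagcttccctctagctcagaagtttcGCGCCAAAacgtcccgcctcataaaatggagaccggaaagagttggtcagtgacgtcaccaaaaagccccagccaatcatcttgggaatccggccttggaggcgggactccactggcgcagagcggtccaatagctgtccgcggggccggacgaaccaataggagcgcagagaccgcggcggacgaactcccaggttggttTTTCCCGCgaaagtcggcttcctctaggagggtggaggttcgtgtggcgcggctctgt
Mcm6, chr13:42404303-42404602, minus strand: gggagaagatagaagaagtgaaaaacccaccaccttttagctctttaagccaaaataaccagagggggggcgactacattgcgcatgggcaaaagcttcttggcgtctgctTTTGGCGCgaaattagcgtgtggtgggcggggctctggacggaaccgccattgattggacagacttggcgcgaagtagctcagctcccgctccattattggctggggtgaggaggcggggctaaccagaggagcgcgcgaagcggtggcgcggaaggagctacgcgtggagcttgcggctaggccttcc

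Genes of mitosis were higher too. Of 45 measured genes of the mitotic spindle and checkpoint 23 were higher and 0 lower, with a median difference of 0.69, and 44 of the 45 had a positive difference, as did 76.3% of all genes. Under all 3 scalings 7 were higher, and the count as deposited fell to 5 without F-RBC rat 2, 6 without naive rat 1, 8 without F-RBC rat 3 and 12 without naive rat 2. Top2a, the topoisomerase that untangles chromosomes, was at 6.79, 7.51 and 7.42 in F-RBC rats, against 5.46, 5.68 and 5.65 in naive rats (difference 1.65, SE 0.32, adjusted p = 0.00779). Bub1, a kinase of the spindle checkpoint, was at 5.70, 5.78 and 5.91 in F-RBC rats, against 4.62, 4.78 and 4.97 in naive rats (1.01, adjusted p = 0.00504). The kinetochore gene Ndc80 (0.97), the spindle motor Kif11 (0.92) and the checkpoint kinase Ttk (0.96) likewise passed under every scaling and without any 1 rat. Mki67, the proliferation antigen Ki-67, which is not on the list, was at 7.25, 7.71 and 7.60 in F-RBC rats, against 5.43, 5.6 and 5.66 in naive rats (1.96, SE 0.37, adjusted p = 0.00759). F-RBC rat 1 was the lowest of its group in Top2a, Bub1, Ndc80, Kif11, Ttk and Mki67, whereas in Rrm2 it was the highest.

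The promoter of Top2a is shown because mitotic genes often pair a CCAAT box, bound by NF-Y, with a cell cycle homology region (CHR, TTTGAA). Searched on both strands, CCAAT occurred in 29 of 39 list members with a promoter (74.4%) and in 37.7% of all promoters. TTTGAA occurred in 29 of 39 as well, against 18.2% of all promoters. Each of these motifs occurred in 13 of the 18 higher members with a promoter, so the higher members did not stand out from the list. In the sequence the capitals ATTGG and TTCAAA are these motifs on the opposite strand.
Top2a, chr10:84473044-84473343, minus strand: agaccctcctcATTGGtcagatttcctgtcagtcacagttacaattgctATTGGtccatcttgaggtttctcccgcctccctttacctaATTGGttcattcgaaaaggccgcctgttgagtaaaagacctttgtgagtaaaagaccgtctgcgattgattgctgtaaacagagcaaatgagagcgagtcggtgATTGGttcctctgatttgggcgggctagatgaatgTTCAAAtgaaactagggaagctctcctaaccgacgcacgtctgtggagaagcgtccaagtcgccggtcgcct

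Regulators that stand before S phase moved less. Of 28 measured regulators of the transition from G1 to S 3 were higher, the cyclins Ccne2 (1.14, adjusted p = 0.00748) and Ccne1 (0.64, adjusted p = 0.0156) and the pocket protein gene Rbl1 (0.84, adjusted p = 0.0186), and only Ccne2 held under all 3 scalings and without any 1 rat. Ccne1 and Rbl1 lost their calls without naive rat 1 or F-RBC rat 2, and Rbl1 without F-RBC rat 3 too. Ccnd1, the cyclin that opens the cell cycle in hepatocytes, differed by 0.35 (adjusted p = 0.456) and Myc by 0.23 (adjusted p = 0.635). Of 27 measured growth factors of regeneration and their partners 0 passed in limma, 5 were higher and 0 lower at an unadjusted p under 0.05, and 0 passed and 3 were higher at that unadjusted level in the t-test of the methods. Hgf, the hepatocyte growth factor made by stellate cells, differed by -0.47 (adjusted p = 0.207), its receptor Met by 0.52 (adjusted p = 0.202) and Tgfa, a ligand of the EGF receptor, by 0.46 (adjusted p = 0.0851).

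**Figure D2:**
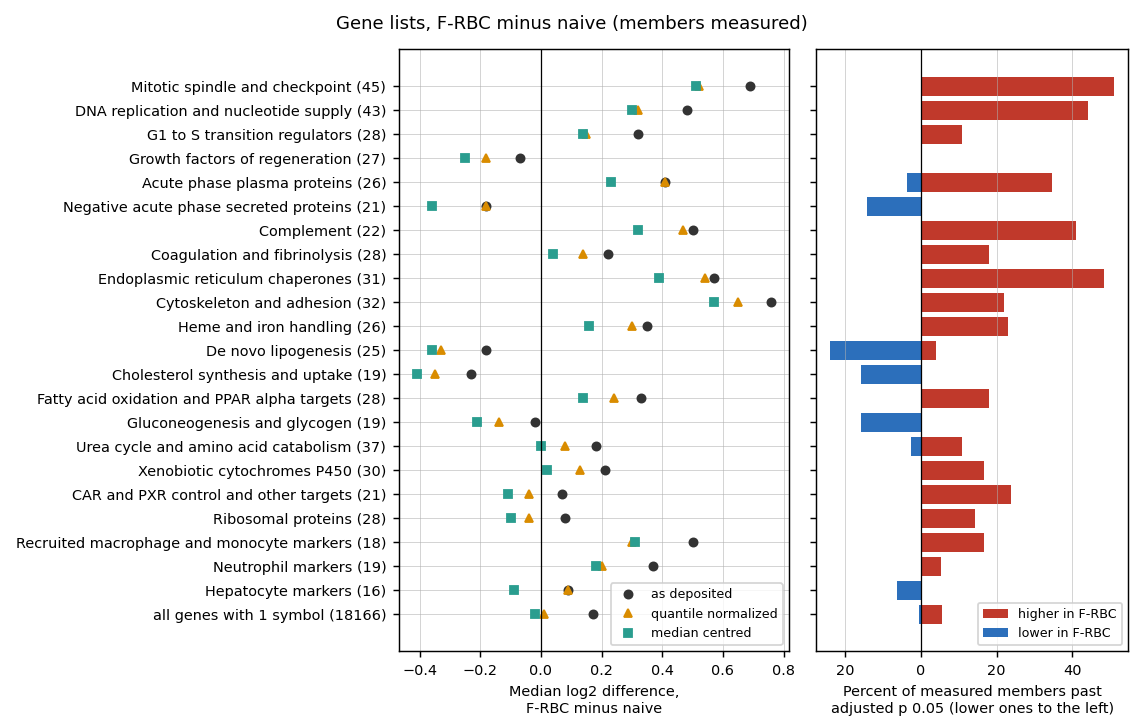
Left, the median log2 difference of F-RBC minus naive rats for each gene list under 3 scalings of the arrays, with the number of measured members in parentheses. Right, the percent of members past the threshold as deposited, higher to the right and lower to the left. The lists of mitosis, DNA replication, complement and endoplasmic reticulum chaperones have the largest shares of higher members, and fat synthesis the largest share of lower ones.

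Several secreted proteins of the acute phase were higher. Of 26 measured acute phase genes 9 were higher and 1 lower, with a median difference of 0.41, and 7 higher and 1 lower call held under all 3 scalings. Orm1, the α1-acid glycoprotein, was at 11.40, 11.30 and 11.75 in F-RBC rats, against 9.30, 9.68 and 9.77 in naive rats (difference 1.90, SE 0.14, adjusted p = 2.52e-06). Lbp, which presents bacterial lipopolysaccharide to CD14, was at 10.64, 10.83 and 10.79 in F-RBC rats, against 7.75, 7.68 and 8.52 in naive rats (2.77, SE 0.27, adjusted p = 5.46e-05). A2m, the main acute phase protease inhibitor of the rat, was at 10.71, 11.07 and 11.22 in F-RBC rats, against 8.74, 7.36 and 8.86 in naive rats (2.68, SE 0.29, adjusted p = 1.53e-04). Hpx (hemopexin, 0.71), Itih4 (0.67) and C4bpa (0.75) were higher by less, and with Lcn2, Orm1, Lbp and A2m they passed without any 1 rat. Hp, haptoglobin, was at 12.22, 12.24 and 12.50 in F-RBC rats, against 11.84, 11.94 and 12.09 in naive rats (0.36, adjusted p = 0.0439), a call lost after centring and in 5 of the 6 fits that left out 1 rat. Cd14, the receptor that Lbp serves, was higher by 1.33 as deposited only. Apcs, serum amyloid P, was the lower member (-0.71, adjusted p = 0.0354), and its call was lost in 5 of the 6 fits that left out 1 rat. The receptor genes Tnfrsf1a (0.85) and Osmr (1.52), and Irak1 (0.75), were the 3 higher members among 29 genes of interleukin and TNF signalling, none of them under all 3 scalings. With 1 rat left out Tnfrsf1a passed in 3 of 6 fits, and Osmr and Irak1 in 1.

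Of 22 measured complement genes 9 were higher and 0 lower (median difference 0.50), and 4 under all 3 scalings. C5, the source of the anaphylatoxin C5a, was at 10.77, 10.81 and 11.10 in F-RBC rats, against 9.66, 9.74 and 10.00 in naive rats (1.09, adjusted p = 0.00201), and C9 of the membrane attack complex was higher by 0.85. Serping1, the C1 inhibitor, was higher by 1.11 and lost its call without naive rat 1 and without F-RBC rat 3. The complement count was 3 to 6 when 1 rat was left out, with 3 without naive rat 1 and without F-RBC rat 3. Of 28 genes of coagulation and fibrinolysis 5 were higher and 0 lower, and 2 were higher without naive rat 1 or F-RBC rat 3 and 3 without naive rat 2. Kng1, kininogen, was at 11.83, 11.92 and 12.03 in F-RBC rats, against 10.54, 10.50 and 11.01 in naive rats (1.24, adjusted p = 4.99e-05), and passed without any 1 rat. The clotting factors F5 (0.99) and F7 (0.88) were higher as well, F5 in 4 of the 6 fits that left out 1 rat and F7 in 3. The fibrinogen chain Fga differed by 0.34 (adjusted p = 0.0621). Of 21 secreted proteins that fall in the acute phase 3 were lower and 0 higher. They were Ttr, transthyretin (-0.40, adjusted p = 0.0272), and the paraoxonases Pon1 (-0.58, adjusted p = 0.0439) and Pon3 (-0.82, adjusted p = 0.0113). Leaving out 1 rat ended the call in 1 fit of 6 for Pon3 (F-RBC rat 2), in 4 for Ttr and in 5 for Pon1.

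The machinery that folds secreted proteins was higher alongside. Of 31 measured endoplasmic reticulum chaperones and their partners 15 were higher and 0 lower, with a median difference of 0.57, and 6 under all 3 scalings. Sdf2l1, a partner of BiP, was at 7.60, 7.94 and 8.42 in F-RBC rats, against 6.26, 6.60 and 6.67 in naive rats (1.48, adjusted p = 0.00728). Dnajb11, a co-chaperone, was at 9.08, 8.76 and 8.79 in F-RBC rats, against 7.61, 7.73 and 7.98 in naive rats (1.10, adjusted p = 0.00651), and Ssr1 of the translocon was higher by 1.05. Hspa5, the chaperone BiP, was at 11.08, 11.17 and 11.02 in F-RBC rats, against 9.92, 10.35 and 10.60 in naive rats (0.80, adjusted p = 0.012). Calr, calreticulin, was higher by 0.82 (adjusted p = 0.0147). Naive rat 1 was the lowest of its group in all of these, and it was the dimmest array. Without it 3 members of the list passed, and without F-RBC rat 2 4 passed; Hspa5 and Calr lost their calls in both of these fits. Targets of ATF4, which acts in another arm of the stress response, gave 0 calls among 29 measured genes in limma, with a median difference of 0.00 and, at an unadjusted p under 0.05, 2 higher and 4 lower. The t-test of the methods gave 0 calls after adjustment and 1 higher and 0 lower at that unadjusted level.

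The promoters of Hspa5 and Calr are shown for the endoplasmic reticulum stress element, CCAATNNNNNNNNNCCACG, which contains a CCAAT box and is known from this gene family. This motif was added after the lists were examined. On both strands it occurred in 8 of 23 list members with a promoter (34.8%), 5 of them among the 12 higher ones, and in 20 of 27457 promoters (0.0728%). The 5 were Hspa5, Hsp90b1, Calr, Canx and Xbp1. Other motifs were searched too. TTCNNNGAA, a site for STAT factors, occurred in 7 of 23 acute phase members with a promoter, in 1 of the 6 higher ones and in 8.69% of all promoters. Of 15 circadian clock genes with a promoter 5 held the E-box CACGTG and 1 the D-box (TTATGTAA or TTATGCAA), against 6.63% and 1.65% of all promoters.
Hspa5, chr3:38452766-38453065, plus strand: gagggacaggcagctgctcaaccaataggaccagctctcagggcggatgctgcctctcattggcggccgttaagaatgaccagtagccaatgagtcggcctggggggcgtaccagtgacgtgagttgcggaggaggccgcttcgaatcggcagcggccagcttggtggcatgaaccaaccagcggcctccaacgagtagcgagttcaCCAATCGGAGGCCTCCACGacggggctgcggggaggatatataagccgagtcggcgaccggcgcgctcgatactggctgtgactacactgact
Calr, chr19:40213117-40213416, plus strand: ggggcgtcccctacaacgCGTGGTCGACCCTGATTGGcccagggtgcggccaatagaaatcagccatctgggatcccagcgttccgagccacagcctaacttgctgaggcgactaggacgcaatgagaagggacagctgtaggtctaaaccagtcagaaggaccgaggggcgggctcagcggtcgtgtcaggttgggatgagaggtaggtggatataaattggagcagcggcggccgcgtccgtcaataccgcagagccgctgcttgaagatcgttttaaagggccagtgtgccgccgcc

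Tubulin and actin genes were higher as well. Of 32 measured genes of the cytoskeleton and adhesion 7 were higher and 0 lower, with a median difference of 0.76, and 5 under all 3 scalings. Tuba1c was at 10.39, 10.16 and 9.69 in F-RBC rats, against 8.53, 8.59 and 9.04 in naive rats (1.36, adjusted p = 8.69e-04), and Tubb5 at 9.37, 9.84 and 9.19 in F-RBC rats, against 7.82, 7.71 and 8.21 in naive rats (1.55, adjusted p = 0.00748). Tubb6 (1.5) and Tubb2a (1.58), 2 further β-tubulins, were higher in every F-RBC rat than in any naive rat, and Tubb2a lost its call without naive rat 1 or F-RBC rat 2. Near-identical tubulin copies may share probes, so their separate values are uncertain. Actb, often used as a reference gene, was at 10.56, 11.28 and 11.16 in F-RBC rats, against 9.82, 10.24 and 10.32 in naive rats (0.87, adjusted p = 0.0202), and lost its call without naive rat 1, F-RBC rat 2 or F-RBC rat 3. The count of the list was 3 without naive rat 1 and 3 without F-RBC rat 2, 4 without F-RBC rat 3 and 11 without F-RBC rat 1.

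Enzymes of fat synthesis were lower. Of 25 measured genes of de novo lipogenesis 6 were lower and 1 higher, with a median difference of -0.18, and all 6 lower calls held under the 3 scalings. Besides Scd they were Pklr, the liver pyruvate kinase that feeds the pathway, at 6.56, 6.66 and 6.89 in F-RBC rats, against 8.42, 8.10 and 8.31 in naive rats (-1.57, SE 0.23, adjusted p = 0.0013), Lpin1 (-2.18), a phosphatidate phosphatase, Fads2 (-1.57), a desaturase, Acly (-0.96), which makes cytosolic acetyl-CoA, and Me1 (-0.76), which supplies NADPH. The higher member was Agpat2 (0.84), an acyltransferase, and not under other scalings. Scd and Pklr passed without any 1 rat, while Lpin1 and Fads2 did so in 1 fit of 6, Me1 in 2 and Acly in 0, and 2 to 5 members were lower when 1 rat was left out.

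Of 19 measured genes of cholesterol synthesis and uptake 3 were lower and 0 higher, with a median difference of -0.23. Fdps, farnesyl diphosphate synthase, was at 7.29, 7.54 and 7.79 in F-RBC rats, against 8.96, 8.51 and 8.85 in naive rats (-1.24, SE 0.28, adjusted p = 0.0185). Idi1, the isomerase one step before it, was at 6.02, 6.59 and 6.59 in F-RBC rats, against 7.43, 7.83 and 7.88 in naive rats (-1.31, adjusted p = 0.0366), and Cyp51, lanosterol demethylase, was lower too (-1.19, adjusted p = 0.0494). The groups did not overlap in any of the 3 genes, but with 1 rat left out Fdps passed in 2 of 6 fits and Idi1 and Cyp51 in 0. Of 28 measured genes of fat oxidation 5 were higher and 0 lower, 3 of them under all scalings, and 2 passed without naive rat 1 or F-RBC rat 3 and 3 without F-RBC rat 2. Cyp4a1, the fatty acid ω-hydroxylase and a PPAR alpha target, was at 10.67, 10.63 and 10.93 in F-RBC rats, against 8.13, 9.12 and 9.16 in naive rats (1.94, SE 0.28, adjusted p = 0.00111). Hadhb of the mitochondrial trifunctional protein was higher by 0.84 and Vnn1, a pantetheinase, by 1.55, and Vnn1 lost its call without naive rat 1 or F-RBC rat 3.

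Among 19 genes of gluconeogenesis and glycogen 3 were lower, Pklr and, in 3 of 6 fits that each left out 1 rat, Ugp2 (-0.85), which makes UDP-glucose, and Pfkfb1 (-0.74). Pck1, the first enzyme of gluconeogenesis, was at 8.55, 9.74 and 10.19 in F-RBC rats, against 9.92, 10.59 and 11.03 in naive rats, with overlap (-1.02, adjusted p = 0.0982). Of 37 measured genes that dispose of nitrogen and amino acids 4 were higher and 1 lower, beside 5.59% and 0.606% of all genes with 1 symbol. Under all 3 scalings 1 was higher and 1 lower, beside 1.44% and 0.606% of all these genes. Gldc, the glycine decarboxylase, was at 7.79, 7.33 and 7.25 in F-RBC rats, against 6.31, 6.39 and 6.20 in naive rats (1.16, adjusted p = 0.00856) and passed without any 1 rat. The other higher members were Nags, which makes the activator of the urea cycle (0.70), Asl, argininosuccinate lyase (0.74), and Hal, histidine ammonia lyase (1.01). Otc, ornithine transcarbamylase, was the lower member at 9.81, 9.0 and 9.92 in F-RBC rats, against 10.44, 10.70 and 10.47 in naive rats (-0.96, adjusted p = 0.0324). Of these 5, Gldc and Otc held under all 3 scalings. With 1 rat left out Nags passed in 4 of 6 fits, and Asl, Hal and Otc in 2.

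Among drug-metabolizing genes the change was concentrated in a few members. Of 30 measured xenobiotic cytochromes P450 5 were higher and 0 lower, with a median difference of 0.21, and 3 were higher without naive rat 1 or any 1 F-RBC rat. Besides Cyp2b1, Cyp2b2 was at 11.08, 10.28 and 10.84 in F-RBC rats, against 7.51, 7.84 and 8.72 in naive rats (2.71, SE 0.37, adjusted p = 7.83e-04), and Cyp2a1 was higher by 1.23 (adjusted p = 0.00921). These 3 held under every scaling and without any 1 rat. Cyp2b1 and Cyp2b2 are near-identical copies whose probes may cross-hybridize, so their separate values are uncertain. Cyp2c11, the male-specific P450 of rat liver, was at 11.16, 9.75 and 11.41 in F-RBC rats, against 11.74, 11.80 and 11.81 in naive rats (-1.01, adjusted p = 0.11), with F-RBC rat 2 far below the other two. Of 21 other targets and regulators of CAR and PXR, the nuclear receptors for drugs, 5 were higher, 2 of them under all 3 scalings, and 1 passed without naive rat 1 or F-RBC rat 2 and 2 without naive rat 2 or naive rat 3. Abcb1b, a drug efflux pump, was at 6.35, 7.69 and 6.32 in F-RBC rats, against 4.64, 5.16 and 4.74 in naive rats (1.94, SE 0.43), and lost its call without naive rat 1 or F-RBC rat 2. In the NRF2 list of 28 redox genes 5 were higher and 3 lower, with 2 and 3 of these under all 3 scalings. Without naive rat 1 or F-RBC rat 2 1 was higher and 1 lower. Nfe2l2, which encodes NRF2 itself, was at 9.27, 9.93 and 9.37 in F-RBC rats, against 7.96, 8.68 and 8.58 in naive rats (1.12, adjusted p = 0.0147), and lost its call without naive rat 1 or F-RBC rat 2. Nqo1, a classic target of NRF2, was higher by 1.22 as deposited only.

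Heme and iron genes are of interest because F-RBC rats received red cells. Of 26 measured genes of heme and iron handling 6 were higher and 0 lower, with a median difference of 0.35, and 2 under all 3 scalings, Hpx and Tfrc. The count was 1 without naive rat 1 or F-RBC rat 2, 2 without F-RBC rat 3 and 3 without naive rat 2. Against PHx rats, which had the resection alone, the median difference of the list was -0.03 and 0 members passed in limma. Against the mean of the PHx, bleeding, S-RBC and HAES groups it was 0.15, and 0 members passed in limma. Whether the red cells had a part in the differences from naive rats was not tested. Tfrc, the transferrin receptor, was at 8.64, 8.94 and 8.25 in F-RBC rats, against 6.79, 7.54 and 6.86 in naive rats (1.55, adjusted p = 0.0132), and lost its call without naive rat 1 or F-RBC rat 2. Slc40a1, the iron exporter ferroportin (0.93), the metal transporters Slc39a14 (0.86) and Slc11a2 (0.65), and Hp were higher as deposited and not after centring. Hmox1, heme oxygenase 1, differed by -0.35 (adjusted p = 0.612), the iron hormone Hamp by -0.20 (adjusted p = 0.864) and ferritin Fth1 by 0.27 (adjusted p = 0.271). The globin gene Hbb-b1 was at 7.25, 8.02 and 7.95 in F-RBC rats, against 8.30, 9.28 and 9.77 in naive rats (-1.38, adjusted p = 0.06), without overlap. In 5.1% of all probe sets the F-RBC arrays lay below the naive arrays. Most erythroid markers went the other way. Of 13 measured, Hbb-b1 among them, 2 were higher and 0 lower, 1 of them under all 3 scalings. A positive difference was found in 9 of the 13, as in 76.3% of all genes, with a median of 0.15.

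The markers of liver cell types were checked for the labelled tissue and for other cells. The 16 measured hepatocyte markers summed to an intensity of 47223 to 53744 in F-RBC rats and 44211 to 51552 in naive rats, with 1 lower member, Ttr. Of 18 markers of recruited macrophages and monocytes 3 were higher, 1 of them under all 3 scalings. All 18 had a positive difference, as did 76.3% of all genes, with a summed intensity of 1115 to 3326 in F-RBC rats and 848.1 to 1101 in naive rats. Without naive rat 1, naive rat 2, F-RBC rat 2 or F-RBC rat 3, 0 of the list passed in limma (4 to 6 at an unadjusted p under 0.05). Cx3cr1, the fractalkine receptor, was at 5.69, 6.20 and 6.42 in F-RBC rats, against 4.57, 4.48 and 4.75 in naive rats (1.51, adjusted p = 0.0239), and passed in 2 of 6 fits with 1 rat left out. Vcan was at 4.98, 6.67 and 6.55 in F-RBC rats, against 4.56, 4.56 and 4.18 in naive rats (1.63), and passed in 1 of 6 fits with 1 rat left out. Of 19 neutrophil markers Lcn2 alone was higher, and the list summed to an intensity of 1635 to 2519 in F-RBC rats and 291.6 to 318.6 in naive rats. Lcn2 itself made up a mean of 1504 of this sum in F-RBC rats and 19 in naive rats. Of the 19, 17 had a positive difference, against 76.3% of all genes, with a median of 0.37, and at an unadjusted p under 0.05 6 were higher and 0 lower. Of the genes of neutrophil granule proteins, Mpo (-0.17), Elane (0.29) and Camp (0.08) were near the floor in both groups. Their means were 4.88, 4.91 and 5.26 in F-RBC rats and 5.05, 4.62 and 5.18 in naive rats, and none passed the test. Whether the number of neutrophils differed was not tested. Of 19 Kupffer cell markers 1 was higher, Slc40a1, and 13 had a positive difference, with a median of 0.13. At an unadjusted p under 0.05 3 were higher and 1 lower. Clec4f, a lectin of Kupffer cells, was at 6.70, 7.38 and 8.16 in F-RBC rats, against 7.86, 8.52 and 8.13 in naive rats (-0.76, adjusted p = 0.135). The Kupffer markers summed to 3016 to 4856 in F-RBC rats and 2776 to 4000 in naive rats. Of 23 stellate cell markers Rgs5 was higher (0.98), lost without F-RBC rat 2, and of 17 endothelial markers Lyve1 (0.69), which passed in 1 of 6 fits. Of all genes with 1 symbol 5.59% were called higher, so 1 call among 17, 19 or 23 markers was near that share. The part of the cell types named here in the differences above was not tested.

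To see where F-RBC livers stood apart from other operated rats, they were set against PHx rats and against the mean of the PHx, bleeding, S-RBC and HAES groups, in the same fit. These comparisons use the same 3 F-RBC arrays as the one with naive rats. Against PHx rats 63 probe sets passed (0.172%), 25 higher (0.0681%) and 38 lower (0.104%), and against the other operated rats 111 (0.303%), 96 higher (0.262%) and 15 lower (0.0409%). The split moved with the scaling here too, to 10 higher and 66 lower against PHx rats after centring, and against the other operated rats to 54 higher and 28 lower after quantile normalization and 18 higher and 17 lower after centring. For the acute phase genes above the differences against PHx rats were small or below 0, at -0.43 for Lcn2 (adjusted p = 0.61), -0.45 for Orm1 (adjusted p = 0.2) and -0.80 for A2m (adjusted p = 0.246). For Cyp2b1 it was 1.72 (adjusted p = 0.24) and for Scd -1.30 (adjusted p = 0.359).

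Cell cycle genes, amino acid enzymes and cholesterol enzymes were among the genes past the threshold against the other operated rats, as were 2 of the 21 CAR and PXR targets, 2 of 28 conjugating enzymes, 2 of the 16 hepatocyte markers and 1 of the 30 P450s. Of the 45 mitotic genes 12 and of the 43 replication genes 7 were past the threshold against the other operated rats, and 0 and 1 against PHx rats alone. Rrm2 was at 7.68, 7.16 and 7.22 in F-RBC rats, against 5.03 to 6.36 in the 12 other operated rats (difference 1.55, SE 0.22, adjusted p = 0.0149). PHx rats were at 5.97, 5.43 and 6.24 (1.47, adjusted p = 0.0379). The call against PHx rats was kept in 0 of 6 fits that left out 1 rat (adjusted p 0.0671 to 0.18). Mcm6 averaged 6.70 in F-RBC rats, against 6.20 in PHx, 5.09 in bleeding, 5.33 in S-RBC and 5.39 in HAES rats, and its difference from the other operated rats was 1.20 (SE 0.19, adjusted p = 0.0187). Of the 37 nitrogen and amino acid genes 6 were past the threshold against the other operated rats. Ass1, argininosuccinate synthase, was at 10.98, 10.71 and 10.83 in F-RBC rats, against 9.45 to 10.25 in the other operated rats (0.94, SE 0.13, adjusted p = 0.0138), and at 10.56, 10.69 and 10.85 in naive rats. Here F-RBC and naive rats overlapped (0.14, adjusted p = 0.623), and it was the other operated rats that lay lower. Hal (1.34, adjusted p = 0.0183) and Amdhd1 (1.90, adjusted p = 0.0231), which act in histidine breakdown, and Acmsd (1.57, adjusted p = 0.0217) were higher than in the other operated rats. In Hal, HAES rat 3 at 8.55 overlapped the lowest F-RBC rat at 8.54.

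On the lower side, Idi1 was at 6.02, 6.59 and 6.59 in F-RBC rats, against 6.78 to 8.99 in the other operated rats (-1.78, SE 0.28, adjusted p = 0.0185). Fdps was lower than in PHx rats, where it stood at 9.11, 8.91 and 9.07 (-1.49, adjusted p = 0.0395). This call was kept in 0 of 6 fits that left out 1 rat (adjusted p 0.0615 to 0.18). Fdps was also lower than in the other operated rats together (-1.34, adjusted p = 0.0217), with HAES rats at 7.97, 7.28 and 8.87. Cyp2e1, the pericentral P450 that oxidizes ethanol, was higher than in PHx rats (1.17, adjusted p = 0.0199), a call kept in 1 of 6 fits that left out 1 rat. It averaged 11.14 in F-RBC rats and 11.27 in HAES rats, and did not pass against the other operated rats together (0.61, adjusted p = 0.0858). These calls rest on few rats. Without F-RBC rat 2 0 probe sets remained past the threshold in limma against the other operated rats (3027 at an unadjusted p under 0.05), without F-RBC rat 1 1 and without F-RBC rat 3 23, against 179 without PHx rat 1. Against PHx rats the count was 5 without PHx rat 2, 7 without PHx rat 3, 8 without F-RBC rat 2 and 10 without F-RBC rat 1. When probe sets in which all F-RBC, S-RBC and HAES arrays lay on 1 side of all others were left out, 36416 remained and 0 passed against PHx rats in limma (4959 at an unadjusted p under 0.05). Among those left out were Fis1 (-1.66 against PHx rats, adjusted p = 0.00464) and Ppif (1.29, adjusted p = 0.0116). Against PHx rats Fis1 passed without any 1 rat, and Ppif in 3 of 6 fits that left out 1 rat. The t-test of the methods gave 0 calls in both comparisons after adjustment (5824 against PHx rats and 3793 against the other operated rats at that unadjusted level).

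**Figure D3:**
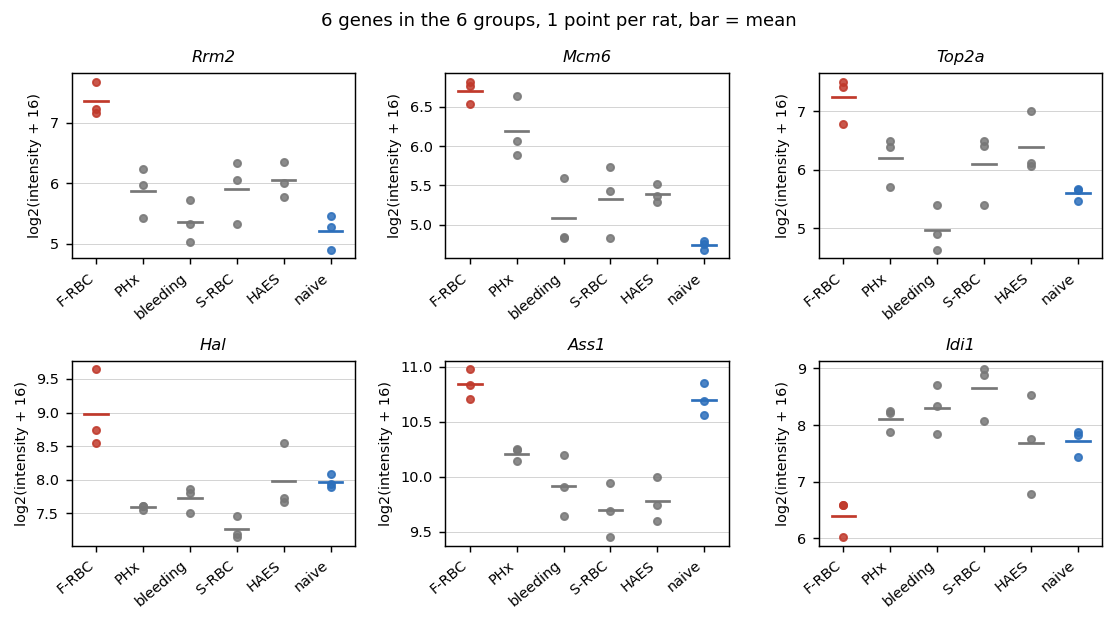
Rrm2, Mcm6, Top2a, Hal, Ass1 and Idi1 in each group, with log2(intensity + 16) on the y axis, 1 point per rat and a bar at the mean. F-RBC rats are highest in Rrm2, from 7.16 to 7.68, and lowest in Idi1, from 6.02 to 6.59, while in Ass1 they lie with the naive rats above the other operated rats.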

How the data were processed

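Liver RNA of 18 rats was measured on Affymetrix Rat Gene 2.0 ST arrays. Each rat had its own array, and 3 rats formed each of 6 groups taken from the sample titles. The authors deposited 1 linear intensity per probe set and array. Per the labels the processing used Affymetrix Power Tools and PLIER, with versions and genome build not given in the sources used here, and the arrays were not brought to 1 common distribution. The sources do not settle which summarization made the deposited values. All 18 sample columns were mapped, and 0 were left unused. Probe sets were named through the platform annotation, where 18511 had 1 symbol, 575 several and 17599 none, and genes with several probe sets were taken by the brightest.

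Values were log2(intensity + 16) with no further normalization. One mean per group was fitted to all 18 arrays with limma 3.58.1 in R 4.3.3 (lmFit, eBayes with trend), with Benjamini-Hochberg adjustment over 36685 probe sets. Tables and figures were made with Python 3.11.15, pandas 2.3.3, numpy 2.4.6 and matplotlib 3.10.9. The number of arrays limits the precision. The fit was tested on simulated data of the F-RBC and naive comparison with 36685 probe sets. It recovered 63 of 100 probe sets changed by 1 on the log2 scale and 98 of 100 changed by 2, with 8 others called. Dim probe sets were given no planted change, so their recovery was not tested. The 8 others belong to the simulation and do not estimate false calls on the measured arrays, where the calls moved with the scaling.

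Named genes were the 15 largest differences each way past the threshold as deposited, after quantile normalization and after centring, with the groups not overlapping, then up to 8 members of each list by p, members described for their role, and up to 5 each way by the same rule against PHx and the other operated rats. Predicted genes, receptors of smell and taste, immune receptor segments and histones were skipped. Members and lists were chosen with earlier results of these data known, and genes can be in several lists. Promoters came from RefSeq on GRCr8. Alternatives covered scaling, the added value, dim probe sets, the arrays in the fit, array weights, the variance prior, a replicate block, the t-test of the methods, probe sets that part the groups and leaving out each rat.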

Additional observations from a re-analysis of the deposited data

How the results depend on the processing

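The comparison of F-RBC with naive rats gave 2264 calls, 1428 after centring and 4361 with array weights. With the 12 arrays of naive, PHx, F-RBC and S-RBC rats it gave 1479, and without 1 rat 554 to 1431. The t-test of the methods gave 10 after Benjamini-Hochberg adjustment and 8164 at an unadjusted p under 0.05. The paper chose the cut-off of that test by the size of the gene sets, and the adjustment was added here. Against PHx rats the count of 63 became 3 with only the groups compared, 25 with 12 arrays, 564 with array weights, 19 with the replicate block, 0 with the t-test, 0 without the probe sets that part the groups and 5 to 55 without 1 rat. Against the other operated rats the count of 111 became 35 after centring, 30 with 1 added before log2 and 199 with 64, 42 with only the groups compared, 715 with array weights, 48 with the replicate block, 0 with the t-test and 0 to 179 without 1 rat. The fit with 12 arrays was not run there because it lacks 2 of the groups. The cause of these shifts was not tested. Against PHx rats centring gave 10 higher and 66 lower calls, against 25 and 38 as deposited.

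Same-numbered F-RBC and naive rats shared only a number, with correlations of their deviations of 0.293, 0.016 and 0.081, and F-RBC rat 2 correlated best with naive rat 3 (0.164). The replicate block gave 1800 calls against naive rats. Of 181 named genes and list members past the threshold against naive rats 134 were kept after quantile normalization and 98 after centring. The replicate block kept 144, the t-test after adjustment 0 and the fits without 1 rat 67 to 127, and 0 changed direction.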

Other observations

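Beyond the lists, 105 genes passed under all 3 scalings and without any 1 rat, 93 higher and 12 lower in F-RBC rats. The genes named here were chosen after their values were seen. Among the higher ones were Alg12 (1.31), Alg8 (1.18) and Dpagt1 (1.18), which act in building N-linked sugar chains, Ddost (1.09), a subunit of the enzyme that transfers them, and Ppib (0.98), a prolyl isomerase of the endoplasmic reticulum. Ckap2 (1.22), a spindle protein, Esco2 (1.18), which acts in cohesion, and Smc2 (0.99), a condensin subunit, were higher as well. No count or test of such groups was made. On the lower side were Mme (-1.16), the peptidase neprilysin, Hsd17b13 (-0.94), a protein of lipid droplets, and Tkfc (-0.99), a kinase of fructose breakdown.

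Probe sets with no gene symbol made up 74.6% of the lower calls, 39% of the higher calls and 48% of all probe sets. The lower ones with no symbol had a median level of 7.04 and the lower ones with 1 symbol 7.39, against 5.14 for all probe sets.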
